A study of Homo sapiens with 4 samples.

Results

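A group of 10 genes of the HSP70 superfamily that are studied less often than its main members were followed in MM.1S cells, an established human multiple myeloma line, after treatment with JG342. They are HSPA4, HSPA4L and HSPH1, which encode the HSP110 proteins of the cytosol, HYOU1 and HSPA13 of the endoplasmic reticulum (ER), HSPA14, which acts at the ribosome, and HSPA2, HSPA6, HSPA1L and HSPA12A. They were taken by gene symbol, and all 10 were found among the 16057 genes of the table. JG342, an allosteric inhibitor of HSP70, was given at 350 nM, and control cells received the solvent DMSO. Both groups were collected after 26 h, with 2 libraries per treatment, numbered 1 and 2. Transcript levels are given as TPM, a per-length unit in which the values of a library add up to about the same total, so that levels can be compared between genes. The labels describe the libraries as biological duplicates of 1 cell line, so the p-values refer to the spread between these cultures. In the gene fits that spread is estimated in large part from other genes, as the processing section describes. TPM is relative to the library total, so a change in the RNA content per cell cannot be told apart from a change in a gene.

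HSP70 proteins bind and release unfolded proteins in a cycle driven by ATP. J-domain proteins speed up ATP hydrolysis, and nucleotide exchange factors let ADP leave so that the bound protein is released. The HSP110 proteins and HYOU1 look like HSP70 proteins themselves and work as exchange factors for them, HSP110 in the cytosol and HYOU1 in the ER, where its partner is HSPA5 (BiP). Plasma cells and myeloma cells make large amounts of immunoglobulin and depend heavily on ER folding.

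The TPM totals ran from 994463 to 994718 per library, and an approximate depth, derived from the steps between low values, from 8710000 to 9520000 reads. All 8 plasma cell markers, among them SDC1, IRF4 and XBP1, were present, with a summed level of 4110 to 4730 TPM in the DMSO libraries and 4367 to 4645 TPM in the JG342 libraries. Of 11 markers of other cell types, 9 were in the table, with a summed level of 53.7 to 65.2 TPM with DMSO and 59.8 to 65.8 TPM with JG342. In each treatment 5 of these 9 stayed below 1 TPM in both libraries, and 1 of them was at 0 (COL1A2 with DMSO, EPCAM with JG342), while LYZ gave most of the sum. Genes whose mean level reached 1 TPM were fitted together (limma on log2(TPM + 1), two-sided, Benjamini-Hochberg adjustment over 12042 genes), and fold changes are on that log2 scale. Of these genes, 18.4% passed an adjusted p of 0.05, 10.8% as higher after JG342 and 7.62% as lower. The balance depended on scaling: 1304 genes were higher and 917 lower as reported, 966 and 1200 after scaling the libraries to equal medians, and 1016 and 984 after quantile normalization. Of the 10 genes, 7 were fitted and HSPA2, HSPA1L and HSPA12A were too low. Among the 7, 2 rose (HSPA13, HYOU1), 2 fell (HSPH1, HSPA14), and HSPA4, HSPA4L and HSPA6 did not pass.

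The 10 genes spanned a wide range of levels. With DMSO the order was HYOU1 (mean 196 TPM), HSPA4 (111), HSPA14 (86.8), HSPH1 (75.1), HSPA13 (47.3) and HSPA4L (25.4), followed by HSPA6 (1.67), HSPA12A (1.01), HSPA1L (0.78) and HSPA2 (0.305). In this order the libraries of neighbouring genes overlapped for HSPA14 with HSPH1 and for HSPA12A with HSPA1L, and were apart for the other neighbours. With JG342 the order of the leading genes was HYOU1 (351 TPM), HSPA13 (108), HSPA4 (89.3), HSPA14 (59.8), HSPH1 (45.8) and HSPA4L (23.0), each apart from the next, so HSPA13 was at rank 5 with DMSO and at rank 2 with JG342. The summed level of the 10 genes was 527 and 565 TPM in DMSO replicates 1 and 2 and 715 and 646 TPM in JG342 replicates 1 and 2. As a share of the summed TPM of these 10 and the 5 main HSP70 genes (HSPA1A, HSPA1B, HSPA5, HSPA8, HSPA9), this was 12.7% and 13.0% with DMSO and 17.8% and 17.9% with JG342. The higher sum reflects HYOU1 and HSPA13, since HSPA4, HSPA14, HSPH1 and HSPA4L had lower means with JG342. The share also reflects a lower combined sum of both sets, 4143 and 4336 TPM with DMSO and 4020 and 3616 TPM with JG342. In that sum HSPA8 fell from a mean of 2742 to 1887 TPM, while HSPA5 and HSPA9 rose.

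**Figure D1:**
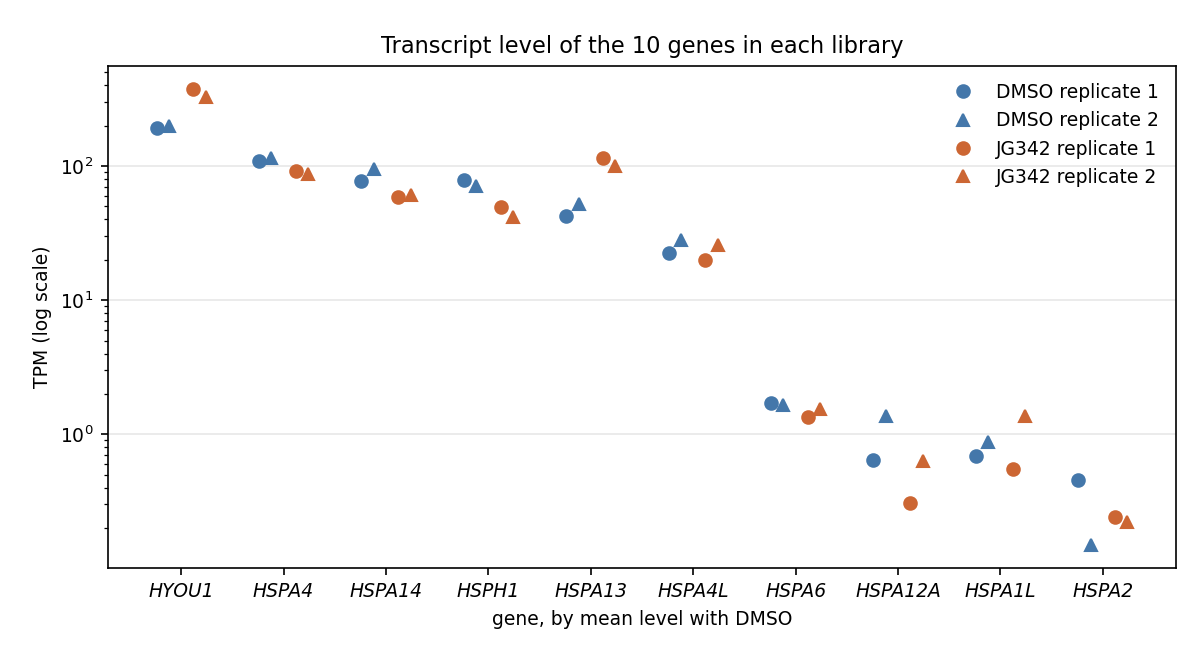
Transcript level in TPM on a log axis for each of the 10 genes, ordered by mean level with DMSO. Blue symbols are the DMSO and orange symbols the JG342 libraries, with circles for replicate 1 and triangles for replicate 2. HYOU1 and HSPA13 lie higher with JG342 in both libraries, HSPH1 and HSPA14 lower, and the rightmost 4 genes stay at or below 1.71 TPM in each library.

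The ER members gave the largest rises among the 10 genes. HYOU1 (NM_001130991), the HSP110-like exchange factor of the ER, was at 193.85 and 198.98 TPM in DMSO replicates 1 and 2 and at 376.85 and 325.95 TPM in JG342 replicates 1 and 2. Both JG342 libraries were above both DMSO libraries, as for 34.0% of fitted genes, and the DMSO libraries lay close together. The mean level was 1.79 times as high after JG342, and the log2 fold change was 0.83 ± 0.10 SE (limma adjusted p 0.00135). Among the fitted genes 3.59% had a larger rise.

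HSPA13 (NM_006948), also called STCH, is an HSP70-like ATPase found with microsomes that lacks the usual peptide-binding part. Its row was at 42.61 and 51.96 TPM with DMSO and at 115.78 and 100.52 TPM with JG342. Again the groups were apart, as for 34.0% of fitted genes. The DMSO library with the higher value was replicate 2 while the JG342 library with the higher value was replicate 1. The mean level was 2.29 times as high, and the log2 difference from DMSO was 1.18 ± 0.13 SE (limma adjusted p 0.000751). A share of 1.52% of fitted genes had a larger rise. Between same-numbered libraries the difference was 1.42 for number 1 and 0.94 for number 2, and for HYOU1 it was 0.96 and 0.71.

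Set against HSPA5, the ER HSP70 that HYOU1 serves, whose own values were 420.23 and 493.75 TPM with DMSO and 611.7 and 653.01 TPM with JG342, both genes made up more in the JG342 libraries. HYOU1 stood at 46.1 and 40.3 TPM per 100 TPM of HSPA5 with DMSO and at 61.6 and 49.9 with JG342. HSPA13 stood at 10.1 and 10.5 per 100 TPM of HSPA5 with DMSO and at 18.9 and 15.4 with JG342. For both ratios the groups did not overlap, and the exact two-sided permutation p was 0.333, the smallest that 2 libraries against 2 can give, so a difference in these ratios could not be called. The margin was narrow for HYOU1, where 46.1 in DMSO replicate 1 was followed by 49.9 in JG342 replicate 2.

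**Figure D2:**
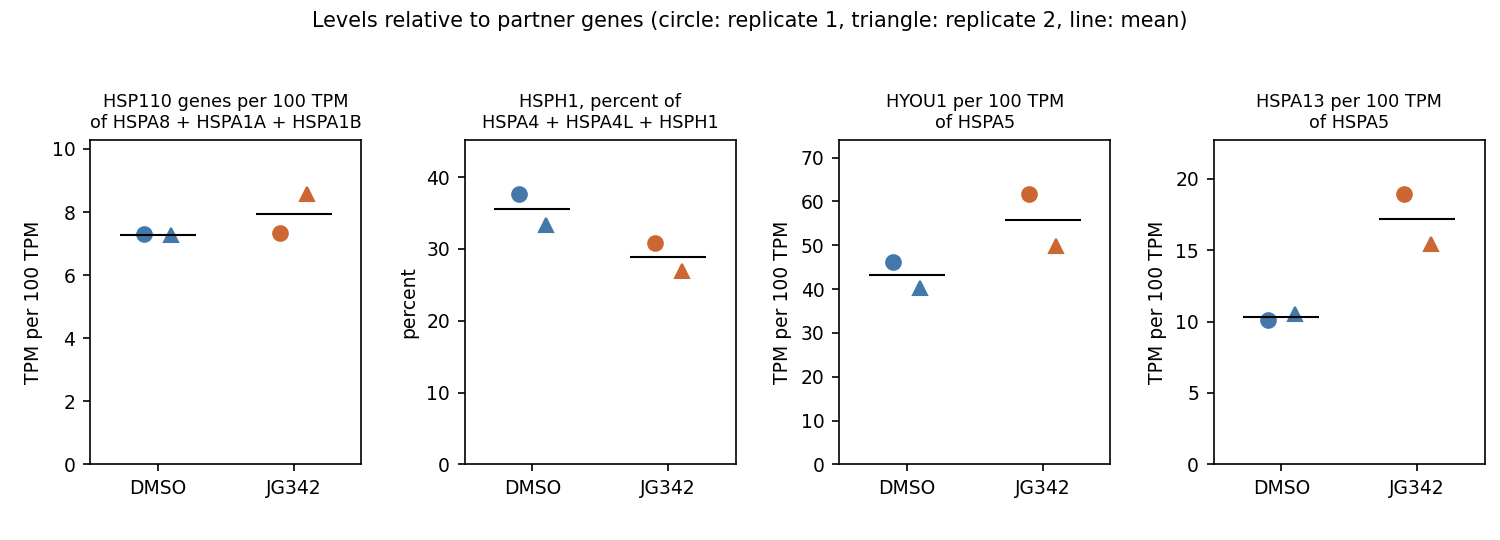
Ratios of TPM values in each library, with linear axes from 0: the HSP110 genes per 100 TPM of the cytosolic HSP70 genes, HSPH1 as a percentage of the HSP110 sum, and HYOU1 and HSPA13 per 100 TPM of HSPA5. Symbols are libraries (circle replicate 1, triangle replicate 2) and lines are means. JG342 replicate 1 sits level with DMSO in the leftmost ratio (7.33 against 7.29 and 7.26), while HSPA13 per HSPA5 is higher in both JG342 libraries.

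The promoters of HYOU1 and HSPA5 are shown because each carries a letter pattern known from ER stress genes. The 250 bases before the annotated start were read from the RefSeq promoter table (GRCh38.p14), in which 9 of the 10 genes had an entry. HYOU1 (chr11:119057206-119057455, minus strand) held the ER stress element II (ATTGG and CCACG with 1 free base between them, on either strand) in 2 copies, from 185 to 175 and from 79 to 69 bases before the start. Both copies read CGTGGTCCAAT on the printed strand and are in capitals. The copy farther from the start overlaps a match to the unfolded protein response element, TGACGTG, and each copy contains a CCAAT box. In HSPA5 (chr9:125241344-125241593, minus strand) the capitals mark 1 match to the ER stress element (CCAAT and CCACG with 9 free bases between them), from 66 to 48 bases before the start. HSPA13 (chr21:14383147-14383396, minus strand) is printed beside them because it rose most among the 10 genes, and it held none of the 8 motifs searched in this window. Besides those named, these were the C/EBP-ATF response element (TGATG and AA with 1 free base between them), a heat shock element of 3 units (GAA, TTC and GAA with 2 free bases between each) and its 2-unit forms GAANNTTC and TTCNNGAA, all on both strands; the 3-unit form contains the 2-unit forms.
HYOU1: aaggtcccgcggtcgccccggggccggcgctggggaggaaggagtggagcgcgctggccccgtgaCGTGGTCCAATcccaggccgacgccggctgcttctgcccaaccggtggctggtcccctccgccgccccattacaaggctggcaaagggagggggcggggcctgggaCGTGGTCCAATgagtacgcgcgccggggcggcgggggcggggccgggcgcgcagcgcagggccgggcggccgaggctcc
HSPA5: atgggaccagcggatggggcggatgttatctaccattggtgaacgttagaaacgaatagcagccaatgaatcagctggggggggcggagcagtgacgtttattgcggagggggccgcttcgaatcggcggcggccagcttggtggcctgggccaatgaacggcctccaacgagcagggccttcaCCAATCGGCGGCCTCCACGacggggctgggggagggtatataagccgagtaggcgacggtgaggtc
HSPA13: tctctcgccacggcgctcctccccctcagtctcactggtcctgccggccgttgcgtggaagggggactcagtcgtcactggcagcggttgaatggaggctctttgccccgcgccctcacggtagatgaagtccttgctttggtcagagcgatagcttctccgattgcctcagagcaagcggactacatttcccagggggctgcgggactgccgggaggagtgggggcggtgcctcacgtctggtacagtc
Of 35116 promoter windows of this length, 0.0513% held the ER stress element II, 0.074% held the ER stress element, 1.68% held TGACGTG, 3.14% held the C/EBP-ATF response element and 32.0% held CCAAT. A match describes these letters and was not tested as a site of binding, and its part in any rise was not tested. HSPA9 rose too, by 0.62 ± 0.09 SE (limma adjusted p 0.00259), and its window held none of the motifs searched.

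Part of the other ER folding genes rose too. Of 24 listed genes of ER folding and its control, all fitted, 10 rose and 0 fell, and 2 of the 10 are HYOU1 and HSPA13. Of all fitted genes 10.8% rose and 7.62% fell. The remaining 14 listed genes did not pass. Among them were HSP90B1, PDIA4 and XBP1, with log2 fold changes of 0.14, 0.01 and 0.12 (limma adjusted p 0.309, 0.960 and 0.527, all named after their values were seen). With the replicate number as a block, a fit with 1 residual degree of freedom, 14 rose and 1 fell. The gene that fell was CALR, by 0.33 (limma adjusted p 6.76e-05 with that block, named after its value was seen). That block raised the counts over all 12042 fitted genes too, from 1304 higher and 917 lower to 2316 and 1891. The median log2 fold change over the 22 listed genes other than HYOU1 and HSPA13 was 0.25, against 0.03 over all fitted genes. HERPUD1 (NM_001010989), which helps remove misfolded proteins from the ER, was at 744.82 and 772.87 TPM with DMSO and 1572.73 and 1362.39 TPM with JG342, and SEL1L (NM_001244984), a core part of the same removal route, was at 85.16 and 79.53 against 197.3 and 145.46 TPM. Their log2 fold changes were 0.95 ± 0.10 SE and 1.03 ± 0.14 SE (limma adjusted p 0.000694 and 0.00231). The exchange factor SIL1, which like HYOU1 acts on HSPA5, rose by 0.55 ± 0.11 SE (limma adjusted p 0.0101; it was chosen after its value was seen).

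The ATF4 response is switched on by several kinds of stress through eIF2 phosphorylation. Of its 14 listed genes, all fitted, 13 rose, against 10.8% of all fitted genes, with a median log2 fold change of 2.15. The gene lists used here were chosen with earlier results of these data known, so their counts are descriptions only. ATF3 (NM_001030287) and TRIB3 (NM_001301188) changed by 2.22 and 3.34 (limma adjusted p 3.03e-05 and 3.76e-05). This list also differed between the DMSO libraries, with a median 0.83 higher in replicate 2 than in replicate 1 on the log2 scale. Its part in the results for HYOU1 and HSPA13 was not tested. Without DMSO replicate 2 the 2 genes changed by 0.85 and 1.32 (limma adjusted p 0.0120 and 0.00152), and without DMSO replicate 1 by 0.81 and 1.04 (0.0131 and 0.00535).

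The cytosolic HSP110 genes were lower or not distinguishable after JG342. HSPH1 (NM_001286503), the heat-inducible HSP110 also called HSP105, was at 78.67 and 71.58 TPM in DMSO replicates 1 and 2 and at 49.93 and 41.66 TPM in JG342 replicates 1 and 2. Every JG342 value was below every DMSO value, as for 28.2% of fitted genes. The mean level was 0.61 times that with DMSO, and the difference on the log2 scale was −0.71 ± 0.12 SE (limma adjusted p 0.00595). A share of 1.81% of fitted genes had a larger fall.

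HSPA4 (NM_002154), the constitutive HSP110 also called APG-2, had values of 108.22 and 114.41 TPM with DMSO and 91.59 and 87.03 TPM with JG342. The groups did not overlap, as for 28.2% of fitted genes that were lower in both JG342 libraries than in both DMSO libraries. The log2 fold change of −0.31 ± 0.10 SE did not pass (limma adjusted p 0.0531), and did so with the replicate number as a block (limma adjusted p 0.00372) or after scaling the libraries to equal medians (0.0272). HSPA4L (NM_001317381), also called APG-1, is a close relative known for its abundance in testis. It was at 22.55 and 28.17 TPM with DMSO and 19.89 and 26.01 TPM with JG342, so that the groups overlapped and the libraries numbered 2 were the higher ones in both treatments. Its log2 fold change was −0.14 ± 0.16 SE (limma adjusted p 0.580).

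The sum of the 3 HSP110 genes was 209 and 214 TPM with DMSO and 161 and 155 TPM with JG342. The sum of the cytosolic HSP70 genes HSPA8, HSPA1A and HSPA1B, which these exchange factors serve, was 2873 and 2950 TPM against 2202 and 1807 TPM. Per 100 TPM of cytosolic HSP70 the HSP110 genes therefore stood at 7.29 and 7.26 TPM with DMSO and at 7.33 and 8.56 TPM with JG342 (exact two-sided permutation p 0.333, the smallest possible). The difference rests on JG342 replicate 2: without it the log2 difference in this ratio is 0.011, against 0.12 with all libraries. Set against HSPA8 alone, the values were 7.69 and 7.76 with DMSO and 7.70 and 9.22 with JG342, which overlap (exact two-sided permutation p 0.667).

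Within the HSP110 sum no difference in shares could be called. HSPH1 made up 37.6% and 33.4% with DMSO and 30.9% and 26.9% with JG342, and these ranges did not overlap (exact two-sided permutation p 0.333, the smallest possible). The shares of the other HSP110 genes were not tested. HSPA4 made up 51.7% and 53.4% with DMSO and 56.7% and 56.3% with JG342, also without overlap. HSPA4L made up 10.8% and 13.2% against 12.3% and 16.8%, with overlapping ranges. In each library HSPA4 was the most abundant of the 3 per length and HSPA4L the least.

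**Figure D3:**
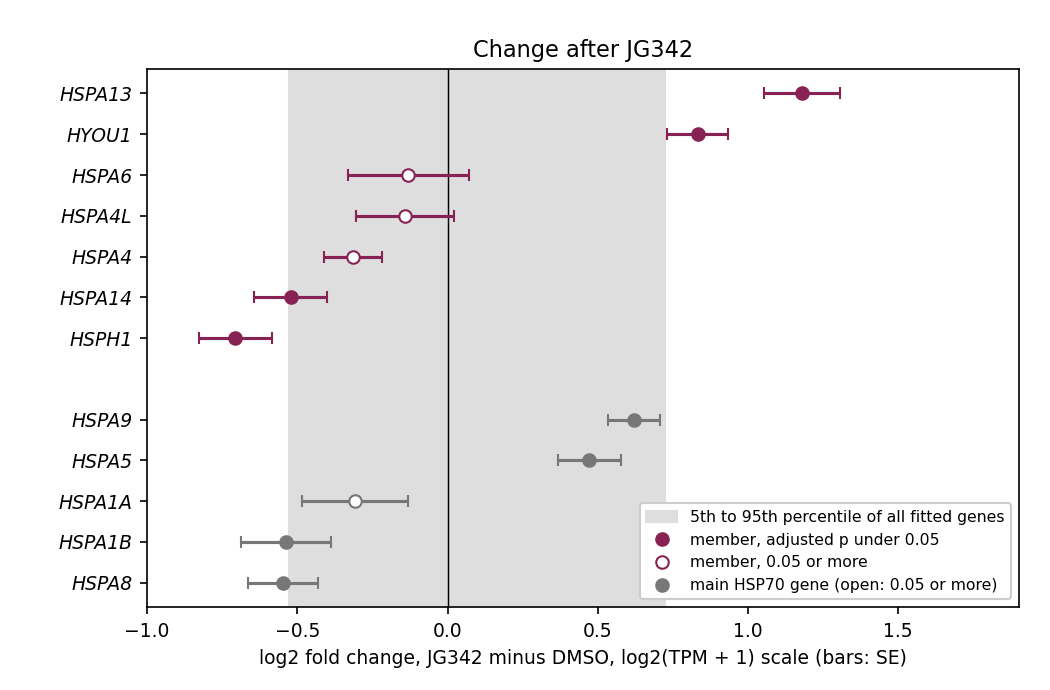
Log2 fold change after JG342 with its standard error for the 7 fitted members (purple) and the 5 main HSP70 genes (grey). Filled circles passed an adjusted p of 0.05, and the grey band runs from the 5th to the 95th percentile of all 12042 fitted genes (−0.53 to 0.72). HSPA13 and HYOU1 lie above the band, HSPH1 lies below it, and HSPA14 lies at its lower edge.

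Heat shock response genes, many of which are targets of the transcription factor HSF1, were lower in part. The list holds 26 genes including HSPA4, HSPA4L, HSPH1 and HSPA6. Of the 25 fitted, 13 fell and 1 rose, against 7.62% and 10.8% of all fitted genes, and HSPH1 is 1 of the 13. The median log2 fold change over the 21 that are not among the 10 genes was −0.45. HSP90AA1 (NM_001017963), the inducible cytosolic HSP90, was at 642.81 and 600.19 TPM with DMSO and 374.74 and 349.41 TPM with JG342, and the small heat shock gene HSPB1 (NM_001540) at 89.71 and 96.96 against 52.03 and 50.62 TPM. Their log2 fold changes were −0.78 ± 0.09 SE and −0.85 ± 0.10 SE (limma adjusted p 0.00123 and 0.00127). The gene that rose was SERPINH1, a collagen chaperone of the ER, by 1.03 from a mean of 1.08 TPM (limma adjusted p 0.00865; it was named after its value was seen).

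The cytosolic exchange factors and adaptor proteins of HSP70 formed a list of 12 genes, all fitted. Of these, HSPH1, HSPA4 and HSPA4L included, 3 fell and 0 rose, with a median of −0.05 over the other 9. BAG1 (NM_001172415), an exchange factor that also binds the proteasome, fell from 58.67 and 57.28 to 43.65 and 41.19 TPM, by 0.44 on the log2 scale with an SE of 0.10 (limma adjusted p 0.0200). STIP1 (NM_001282652), the HOP adaptor that links HSP70 to HSP90, fell from 365.89 and 399.27 to 274.63 and 322.61 TPM, by 0.36 with an SE of 0.11 (limma adjusted p 0.0468).

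**Figure D4:**
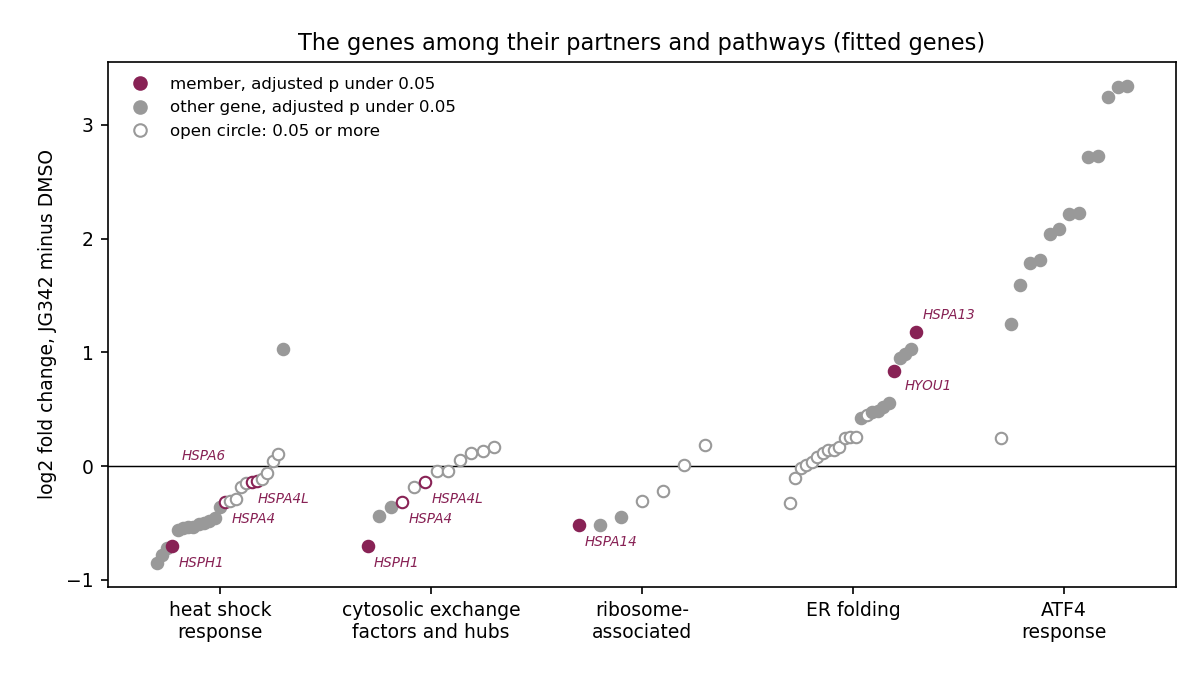
Log2 fold change after JG342 of every fitted gene in 5 listed groups, sorted within each group, with the members in purple and other genes in grey. Filled circles passed an adjusted p of 0.05. HSPH1 is the lowest gene of the cytosolic exchange group, HSPA14 is the lowest of the ribosome-associated group, and HSPA13 is the highest of the ER folding group.

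HSPA14 encodes an HSP70-like protein that works with the J-domain protein DNAJC2 on newly made chains at the ribosome. Its row was at 77.75 and 95.82 TPM in DMSO replicates 1 and 2 and at 58.82 and 60.78 TPM in JG342 replicates 1 and 2. Both JG342 values were below both DMSO values, as for 28.2% of fitted genes. The JG342 values lay close together, whereas the DMSO values were farther apart. The mean level was 0.689 times that with DMSO, and the log2 fold change was −0.52 ± 0.12 SE (limma adjusted p 0.0187). The call rests on DMSO replicate 2 and JG342 replicate 1: without the former it was −0.37 (limma adjusted p 0.147) and without the latter −0.50 (0.0507).

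The HSPA14 row carries the accession NM_001278205. GENCODE release 29 has 2 separate, overlapping gene entries named HSPA14. The accession belongs to a transcript of 4092 nt (ENST00000437161) in one entry (ENSG00000284024), while a transcript of 1904 nt (ENST00000378372) belongs to the other (ENSG00000187522). Whether the deposited value is that of 1 transcript or a sum over transcripts is not given in the sources used here. The HSPA14 values, their test and the ratio to DNAJC2 given next are therefore those of this row, and which of the 2 entries they measure cannot be told.

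Its partner DNAJC2 (NM_001129887) fell from 67.21 and 72.32 TPM to 46.33 and 56.02 TPM, by 0.45 on the log2 scale with an SE of 0.12 (limma adjusted p 0.0343). HSPA14 stood at 116 and 132 TPM per 100 TPM of DNAJC2 with DMSO and at 127 and 108 with JG342, with overlapping ranges (exact two-sided permutation p 0.667). Of 8 listed ribosome-associated genes, 7 were fitted, and 3 fell (SERBP1, HSPA14 and DNAJC2) and 0 rose. Among all fitted genes 7.62% fell and 10.8% rose. Under the replicate block, which raised the counts over all genes as well, 4 fell and 1 rose. SERBP1 (NM_001018067), which binds ribosomes and mRNA, fell by 0.52 with an SE of 0.10 (limma adjusted p 0.00974). NACA (NM_001113201) and BTF3 (NM_001037637), the subunits of the nascent polypeptide-associated complex, had log2 fold changes of 0.19 ± 0.11 SE and 0.01 ± 0.09 SE (limma adjusted p 0.259 and 0.959; both were named after their values were seen).

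HSPA6, HSPA2, HSPA1L and HSPA12A were near the lower limit of the measurement. HSPA6 (NM_002155), an HSP70 gene of humans that is nearly silent until strong heat or proteotoxic stress, was at 1.71 and 1.64 TPM with DMSO and 1.35 and 1.54 TPM with JG342. These values rest on about 19, 18, 14 and 18 reads by the approximate depth. Although the groups did not overlap, as for 62.1% of fitted genes in either direction, the log2 fold change of −0.13 ± 0.20 SE did not pass (limma adjusted p 0.690). No rise was detectable at this depth. Its transcript matches that of HSPA7, an unprocessed pseudogene, at 98.2% identity over 81.5% of its length, so reads may have been divided between both in an uncertain way.

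The promoter of HSPA6 (chr1:161524290-161524539, plus strand, GRCh38.p14) is printed because it was the only one of the 12 windows found for the 10 genes that held the heat shock element of 3 units. The match, TTCGCGAAAGTTC on the printed strand, lies 74 to 62 bases before the start and is in capitals.
HSPA6: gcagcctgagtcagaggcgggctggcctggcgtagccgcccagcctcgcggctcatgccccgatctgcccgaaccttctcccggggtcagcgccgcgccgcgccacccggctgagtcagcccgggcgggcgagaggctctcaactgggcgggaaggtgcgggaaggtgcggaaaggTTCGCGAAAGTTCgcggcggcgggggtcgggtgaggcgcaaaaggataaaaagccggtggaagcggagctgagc
This pattern was found in 0.441% of all promoter windows. The window of HSPA8, the abundant constitutive HSP70 gene whose level fell, from 2723.51 and 2759.69 TPM to 2096.09 and 1677.95 TPM, held 2 matches. HSPH1 and HSPA4 held none of the 8 motifs in their windows. HSPA4L held a 2-unit element (TTCNNGAA, in 6.62% of windows) in 1 of its 3 windows and a C/EBP-ATF response element in another. HSPA1L held the other 2-unit form (GAANNTTC, in 5.78%). The HSPA1L and HSPA1A windows cover nearly the same bases on opposite strands, and this match is the same site in both. Only exact matches within 250 bases were counted, so altered or more distant elements were missed. HSPA1A and HSPA1B also held GAANNTTC but not the 3-unit form.

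HSPA1L (NM_005527), a relative of HSPA1A expressed mainly in testis, was at 0.69 and 0.87 TPM with DMSO and 0.55 and 1.37 TPM with JG342. The JG342 values lay on either side of the DMSO values. The gene lies head to head with HSPA1A in the RefSeq annotation, and its transcript matches that of HSPA1B at 82.5% identity over 71.7% of its length. HSPA1A itself (NM_005345) stood at 9.90 and 8.97 TPM with DMSO and 8.69 and 6.31 TPM with JG342. HSPA1B stood at 139.22 and 181.66 TPM with DMSO and 97.38 and 122.5 TPM with JG342. How reads were divided between HSPA1A and HSPA1B was not tested, so their separate levels are uncertain.

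HSPA2 (NM_021979), needed for sperm formation, was at 0.46 and 0.15 TPM with DMSO and 0.24 and 0.22 TPM with JG342, or about 6, 2, 3 and 3 reads. The DMSO libraries enclosed the JG342 libraries. HSPA12A (NM_001330164), a distant member with an atypical ATPase domain, was at 0.64 and 1.38 TPM with DMSO and 0.31 and 0.63 TPM with JG342, or about 17, 37, 8 and 18 reads. The groups touched, at 0.64 TPM in DMSO replicate 1 and 0.63 TPM in JG342 replicate 2, and within each treatment replicate 2 was about as far above replicate 1 as the treatments were apart. When all genes were fitted without the lower limit, the log2 fold changes were −0.44 ± 0.22 SE for HSPA12A, 0.11 ± 0.23 SE for HSPA1L and −0.08 ± 0.14 SE for HSPA2 (limma adjusted p 0.301, 0.800 and 0.768). The pseudocount of 1 shrinks differences at such levels.

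**Figure D5:**
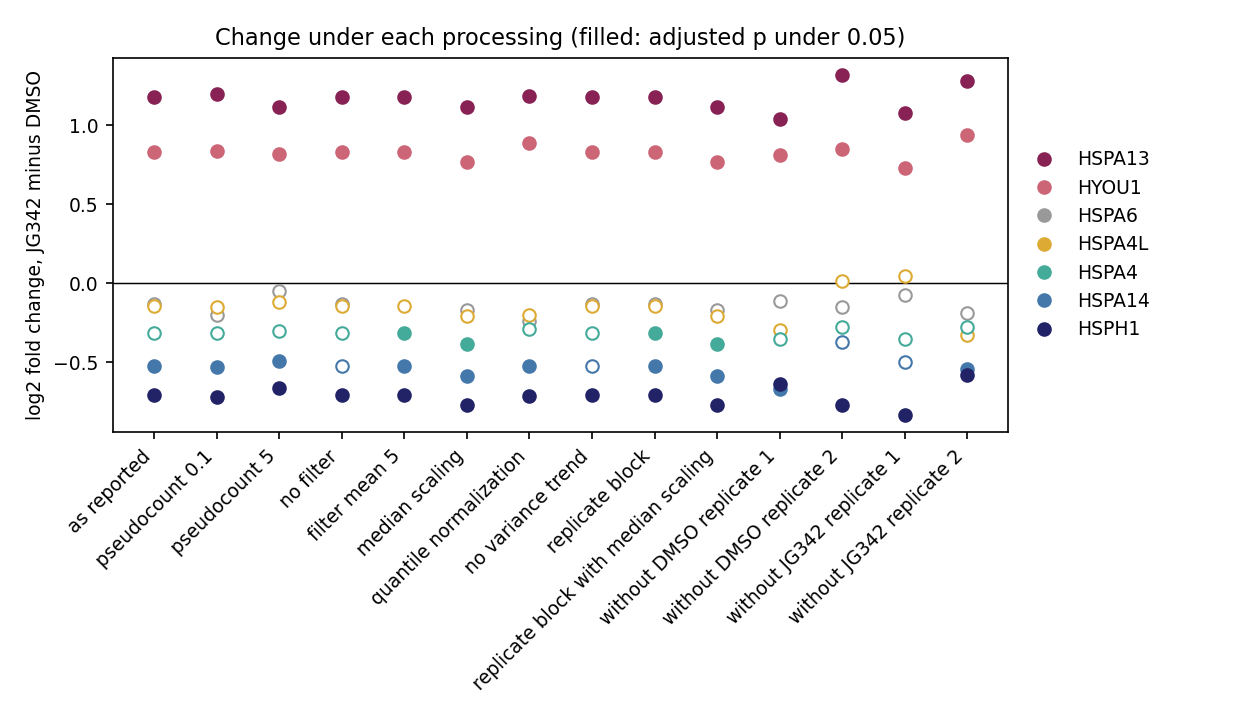
Log2 fold change of the 7 fitted members as reported and under each of 13 other ways of processing, with filled circles where the adjusted p was under 0.05. HSPA13, HYOU1 and HSPH1 are filled under each setting shown, HSPA14 is open under 4, HSPA4 is filled under 4, and HSPA4L is open throughout and crosses 0 when DMSO replicate 2 or JG342 replicate 1 is left out. HSPA6 has no value with the stricter lower limit.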

How the data were processed

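RNA from 4 MM.1S cultures was sequenced, 2 with DMSO and 2 with JG342. The authors deposited 1 table with a TPM value per gene and library. The unit was inferred from the column totals. HISAT2 2.0.4, Bowtie2 2.2.5 and RSEM 1.2.12 are named, with no role, per the submitters' processing notes; genome build, annotation and filters are not given in the sources used here. Values were transformed to log2(TPM + 1), those whose mean reached 1 TPM were kept (12042 of 16057 genes), and treatment was tested with limma 3.58.1 in R 4.3.3 (eBayes with a mean-variance trend, tested on simulated data), two-sided, with Benjamini-Hochberg adjustment and a threshold of 0.05. The simulated libraries had independent noise, so that test does not cover deviations shared by same-numbered libraries. Their spread was set by the mean level alone, and changed genes moved by 1 log2 unit. Genes that vary more than others at their level, and smaller changes such as those of HSPA14 and HSPA4, are therefore not covered either. Per gene the fit has 2 residual degrees of freedom, with 6.89 added from the prior. Count models were not used, since TPM values are not counts. Ratios were compared by an exact permutation test over libraries.

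Same-numbered libraries share a prefix in their descriptions, which is where the pairing comes from, and their deviations from the treatment means correlated at 0.275 across genes. A fit with the replicate number as a block was an alternative, with 1 residual degree of freedom and an infinite prior. Other alternatives changed the pseudocount, the lower limit, the scaling and the variance model, or left out 1 library.

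Approximate reads came from the most frequent value of TPM times transcript length (GENCODE release 29) among transcripts of at least 1500 nt at up to 0.5 TPM; they are estimates and entered no test. Near-identical transcripts were searched with BLAST 2.17.0 at 80% identity over at least 20% of the transcript. The members and lists were chosen with earlier results of these data known. The text names all 10 members, the 5 main HSP70 genes as comparators, DNAJC2, and in each pathway list the 2 other genes with the smallest p; exceptions are marked.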

Additional observations from a re-analysis of the deposited data

How the results depend on the processing

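HSPA13, HYOU1 and HSPH1 kept their direction and passed under each of 13 alternatives, with log2 fold changes of 1.04 to 1.32, 0.728 to 0.937 and −0.834 to −0.578. HSPA14 kept its direction and lost the call without a lower limit and without the variance trend (both −0.52; limma adjusted p 0.0785 and 0.0583); with 1 library left out it ran from −0.67 to −0.37. HSPA4 passed with a lower limit of 5 TPM (−0.31), median scaling (−0.38), the replicate block (−0.31) and the block with median scaling (−0.38), and ran from −0.35 to −0.28 with 1 library left out. HSPA4L ran from −0.33 to 0.043 with 1 library left out, at 0.012 without DMSO replicate 2 and at 0.043 without JG342 replicate 1. HSPA6 passed under none of the 12 alternatives that could fit it. The 2 members that fell became 1 without a lower limit or variance trend and ranged from 1 to 2 with 1 library left out; with the replicate block 3 fell and 2 rose. The HSP110 ratio kept its sign (0.011 to 0.235) and so did that of HYOU1 to HSPA5 (0.21 to 0.51). Over all genes 2221 passed (1304 higher, 917 lower): 828 (533, 295) without a lower limit, 4207 (2316, 1891) with the replicate block and 3985 (1675, 2310) with the block and median scaling, while 526 were lower without the variance trend. Leaving out 1 library gave 767 to 1825 genes (575 to 1107 higher, 192 to 718 lower), a lone library being assumed to vary like the other group. Scaling moved the median of all genes from 0.03 to −0.03. The block changed no other call among the 7 genes. Depth limits HSPA2, HSPA6, HSPA1L and HSPA12A, which rest on an approximate 2 to 37 reads per library.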
